A study of Drosophila melanogaster with 48 samples.

Results

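Prepupal wings of Drosophila melanogaster that expressed the Hox gene Ubx were compared with prepupal wings that expressed eGFP, 6 h after puparium formation at 29 °C. The comparison rests on 4 Ubx arrays and 4 eGFP arrays, 8 of the 48 arrays of the study, taken by their stage, temperature and transgene labels. All animals were white-eyed (w) and carried the Gal4 driver nabGal4NP3537 over the temperature-sensitive repressor Tub-Gal80ts on the third chromosome. On the second chromosome the Ubx line carried UAS-UbxIa and the control line UAS-eGFP, each over a chromosome without it. At 19 °C the repressor keeps the transgene off. For the arrays at 29 °C, animals were kept for 16 h at that temperature, 10 h of it before the white prepupa. A further 8 prepupal arrays, 4 of each line, came from animals held at 19 °C and taken 12.5 h after puparium formation, and these gave the standing difference between the lines. Each array held RNA from 15 to 20 pooled animals. The transgene was driven where nab is expressed, which is part of the wing, so the arrays average driven and undriven cells. In such bulk samples fewer cells of a type and less RNA per cell cannot be told apart.

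Ubx is the Hox gene of the segment that bears the haltere, the balancing organ that flies form in place of a hindwing, and loss of it in that segment turns the haltere into a wing. Its protein is a homeodomain transcription factor that raises some genes and lowers others in the haltere primordium. The prepupal wing, meanwhile, everts under a pulse of ecdysone, lays down a thin prepupal cuticle and folds into a bilayer blade joined by matrix and integrins. A gene that responds to Ubx here is therefore read against a tissue that is already changing its shape, its matrix and its secretion.

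Levels are the deposited log2 values of a probe set, and differences are Ubx minus eGFP on that log2 scale with the standard error (SE) of a limma fit and n = 4 arrays a group, unless stated. A call means a Benjamini-Hochberg adjusted p under 0.05 over all 18769 probe sets. A gene is called Ubx-dependent where it was called at 29 °C and again, with the same sign, in the interaction of line and temperature, which subtracts the 19 °C difference. A gene was read through its brightest probe set. The tissue label was checked on wing genes: the wing selector vg stood between 9.82 and 10.05 in Ubx arrays and between 9.98 and 10.20 in eGFP arrays, far above the array medians, which ran from 4.71 to 4.78 in Ubx arrays and from 4.74 to 4.77 in eGFP arrays. Over the 11982 genes, the share in which a single 29 °C array stood apart from the rest of its group ran from 0.726% to 1.65% across the 8 arrays. Correlations between replicate arrays, taken across probe sets, were between 0.9966 and 0.9979. The Ubx transcript itself was not analysed here.

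The gene that hosts the driver came first. The transcriptional cofactor gene nab stood at 7.62, 7.60, 7.70 and 7.80 in the Ubx arrays, against 6.01, 5.95, 5.99 and 5.90 in the eGFP arrays. These groups lie well apart, and nab rose by 1.72 (SE 0.07, adjusted p = 8.5e-22), while the lines differed by -0.01 at 19 °C. A second, dimmer probe set of nab gave 0.34. Antp, the Hox gene active in the thorax next to the haltere segment, stood at 4.99, 5.10, 4.58 and 4.85 in the Ubx arrays, against 6.37, 5.95, 6.01 and 6.02 in the eGFP arrays. It fell by 1.21 (SE 0.10, adjusted p = 5.73e-13), to values close to the array medians, while the 19 °C difference was 0.08. Its other probe sets gave -0.16 and -0.34 and differed in call.

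At 29 °C, 2078 of 11982 genes were called (17.3%), 1202 higher (10.0%) and 876 lower (7.31%) in Ubx wings. Most of these differences were small: 303 genes (2.53%) differed at least 1.5-fold, 145 higher (1.21%) and 158 lower (1.32%). With the transgene off, 529 genes were called (4.41%). After the 19 °C difference was subtracted, 912 genes (7.61%) remained Ubx-dependent, 548 higher (4.57%) and 364 lower (3.04%). Of these, 212 (1.77%) reached 1.5-fold, 101 higher (0.843%) and 111 lower (0.926%). In probe sets the same counts were 2672 at 29 °C (14.2%), 689 at 19 °C (3.67%), 1443 in the interaction (7.69%) and 1114 Ubx-dependent (5.94%). The split of higher and lower calls depends on scaling: Ubx-dependent probe sets were 673 higher (3.59%) and 441 lower (2.35%) as deposited, and 567 each way after quantile normalisation over all 48 arrays. For the interaction the split was 880 higher (4.69%) and 563 lower (3.00%) as deposited, and 715 higher and 725 lower after quantile normalisation. The called shares of the gene lists below stand beside the 17.3% of all genes, and their Ubx-dependent counts beside the 7.61%. All genes include those near background. With only probe sets above the median level of the prepupal arrays fitted, 2897 were called, more than the 2672 of all probe sets. Called shares were thus higher among brighter probe sets. A list share above 17.3% can reflect level alone, which was not tested.

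**Figure D1:**
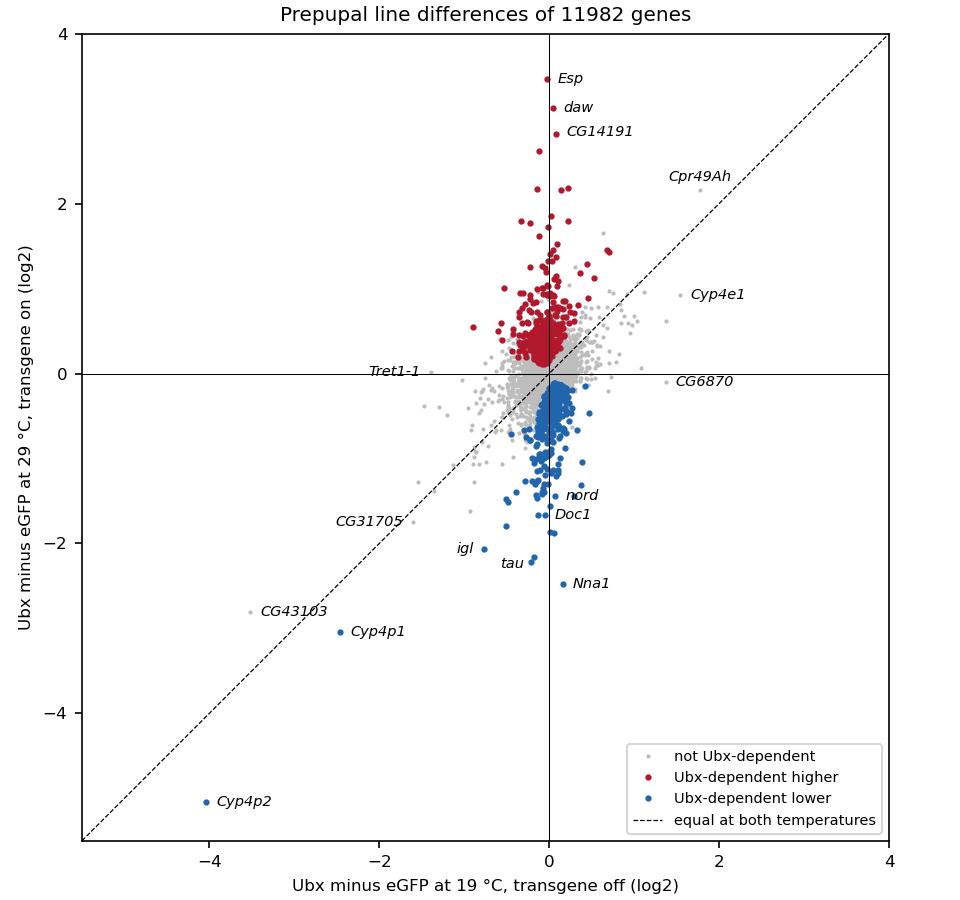
Ubx minus eGFP difference of every gene at 29 °C with the transgene on (vertical axis, log2) against the difference at 19 °C with it off (horizontal axis, log2), 11982 genes, 4 arrays a group. Genes such as Esp and daw lie near 0 at 19 °C and far from it at 29 °C, while Cyp4p2 and CG43103 lie far below 0 at both temperatures; the dashed line marks equal differences.

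Some of the largest 29 °C differences were also present at 19 °C. Among the 129 probe sets (0.687%) that were called and differed at least 2-fold at 29 °C, 103 were Ubx-dependent, and 19 of the other 26 were called with the same sign at 19 °C. The cytochrome P450 gene Cyp4p2 was the lowest gene of the comparison, with 5.09, 4.55, 4.87 and 5.03 in Ubx arrays against 9.91, 9.90, 10.00 and 9.88 in eGFP arrays. Its difference was -5.04 at 29 °C and already -4.04 at 19 °C, so that although it meets the definition of Ubx-dependent, its interaction was -1.0. In Ubx arrays its mean was 4.89 at 29 °C and 4.99 at 19 °C, both close to the array medians. In eGFP arrays it was 9.92 and 9.03. Its neighbour in name, Cyp4p1, gave -3.04 at 29 °C and -2.46 at 19 °C. CG43103 gave -2.81 and -3.52, and CG31705 gave -1.75 and -1.60.

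On the higher side, the cuticle gene Cpr49Ah stood at 7.99, 8.16, 8.02 and 8.19 in Ubx arrays and at 6.10, 5.95, 5.87 and 5.81 in eGFP arrays. That 29 °C difference of 2.16 (SE 0.13, adjusted p = 1.07e-16) had a counterpart of 1.78 at 19 °C, and the interaction was not called (adjusted p = 0.269). The glutathione transferase gene GstT3 gave 0.96 at 29 °C and 1.12 at 19 °C. Of the 689 probe sets called at 19 °C, 368 were not called at 29 °C. Among genes of that kind CG6870 had differences of -0.10 at 29 °C and 1.37 at 19 °C, and the sugar transporter gene Tret1-1 0.02 and -1.39. The Bcl-2 family gene Buffy gave 1.08 at 19 °C, while at 29 °C it lay between 3.90 and 4.22 in Ubx arrays and between 3.89 and 4.03 in eGFP arrays, below the array medians, where no difference could be read. Of the 1443 probe sets called in the interaction, 312 were not called at 29 °C, and 146 of these were called at 19 °C.

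The line difference was uneven along the genome. With the transgene off, 6.35% of 2205 genes on chromosome arm 2L and 7.13% of 2427 on 2R were called, against 1.88% of 2344 on 3L and 2.42% of 2974 on 3R. The X had 4.91% of 1873 genes called. Both arms of the second chromosome, which carries the transgene, thus had the higher shares. Ubx-dependent genes were spread more evenly, with shares from 7.26% on 2L to 8.02% on 3L among the large arms, and 9.23% of the 65 genes on the fourth chromosome.

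**Figure D2:**
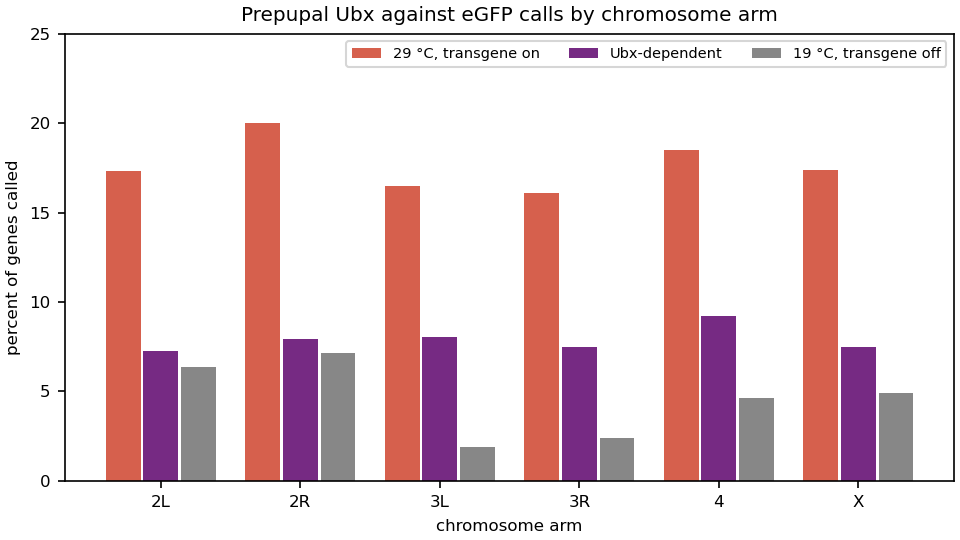
Percent of genes called on each chromosome arm for Ubx against eGFP in prepupal wings at 29 °C, for the Ubx-dependent definition and at 19 °C. The 19 °C bars are tallest on 2L and 2R, at 6.35% and 7.13%, while the Ubx-dependent bars stay between 7.26% and 9.23%.

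Among secreted signals, an activin ligand gave the largest rise. The gene daw, which encodes an activin-type TGF-beta ligand, stood at 8.45, 8.98, 8.05 and 8.43 in Ubx arrays, against 5.45, 5.54, 5.08 and 5.31 in eGFP arrays. It was 8.77-fold higher in Ubx wings (log2 difference 3.13, SE 0.16, adjusted p = 8.93e-20), with 0.05 at 19 °C. At 19 °C daw lay between 3.45 and 3.79 in Ubx arrays and between 3.44 and 3.56 in eGFP arrays. Those values are below the array medians, where no line difference could be read. Of 12 measured members of the activin branch, 3 were called higher and 0 lower (25.0% called, against 17.3% of all genes). The others were wit, a type II receptor, at 0.53 (SE 0.07, adjusted p = 4.1e-08), and tok, a metalloprotease that processes the ligand, at 0.45 (adjusted p = 0.00329). The groups of tok overlapped, and 3 of the 16 leave-one-out fits took away its Ubx-dependence.

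The sister BMP branch moved in both directions. Its list had 5 of 17 measured members called higher and 2 lower (41.2%), with a median of 0.09 against 0.001 for all genes. The gene nord, a secreted modulator of BMP signalling, stood at 8.18, 8.08, 8.11 and 8.17 in Ubx arrays, against 9.50, 9.60, 9.54 and 9.66 in eGFP arrays, and fell by 1.44 (SE 0.08, adjusted p = 1.04e-18). The gene magu, whose protein widens the range of the BMP ligand Dpp, rose by 0.92, with 7.62 to 7.71 in Ubx arrays against 6.68 to 6.77 in eGFP arrays. The BMP-binding protein gene cv-2 fell by 0.57, a difference not called in the interaction (adjusted p = 0.0566). The ligand gene gbb and the receptor genes tkv and sax were called higher by 0.19, 0.24 and 0.18. A second probe set of tkv gave 0.06 and was not called. The interaction of sax was not called (adjusted p = 0.0596).

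Other secreted and surface regulators were among the strongly changed genes. The gene ana, which encodes a secreted glycoprotein, stood between 8.87 and 9.17 in Ubx arrays and between 7.11 and 7.39 in eGFP arrays, a rise of 1.79 (adjusted p = 1.38e-19). The glypican gene dlp, a heparan sulfate carrier that moves morphogens across the epithelium, stood at 8.30, 8.08, 8.31 and 8.40 in Ubx arrays, against 9.44, 9.30, 9.37 and 9.48 in eGFP arrays, and fell by 1.13 (SE 0.07, adjusted p = 3.65e-17). Swim, the gene of a secreted protein that binds Wingless, fell by 1.27 (adjusted p = 6.94e-08) to between 3.78 and 4.03, below the array medians.

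The largest rise among the genes belonged to Esp, a gene for an anion transporter of the sulfate permease family. Esp stood at 8.05, 8.27, 8.05 and 8.55 in Ubx arrays, against 4.85, 4.72, 4.63 and 4.84 in eGFP arrays, which is 11.1-fold higher (log2 difference 3.47, SE 0.09, adjusted p = 7.27e-31). The eGFP values and both lines at 19 °C sat at the array medians, so the level of Esp without Ubx was not shown to be above background. Prestin, a second gene of that transporter family, fell by 0.50 (adjusted p = 9.46e-05), and 8 of the 16 leave-one-out fits took away its Ubx-dependence.

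**Figure D3:**
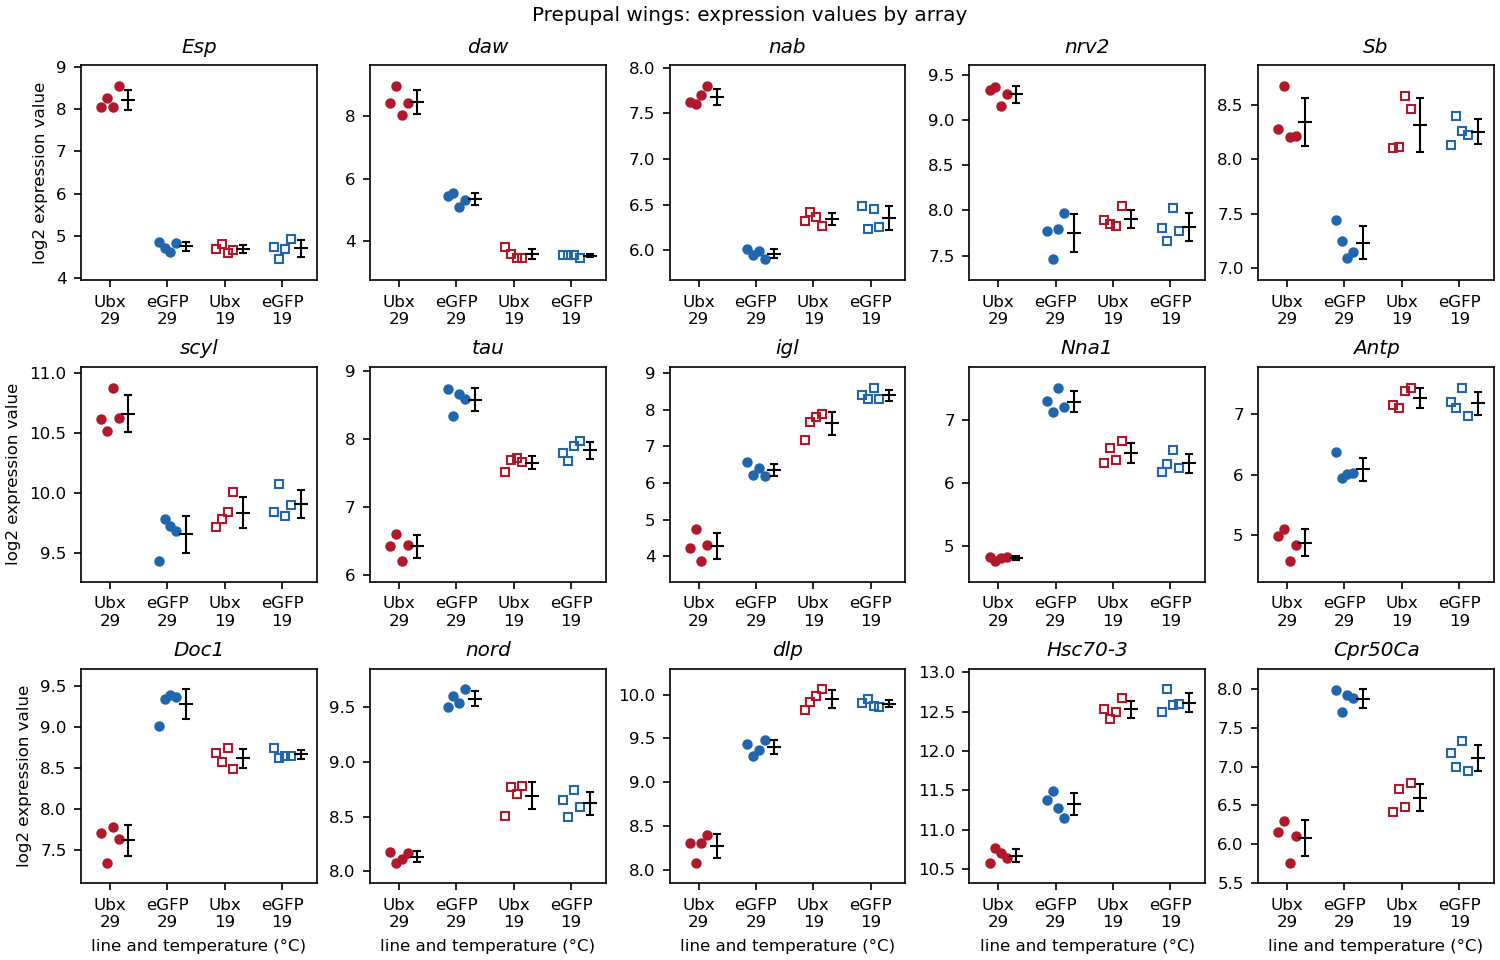
Log2 expression values of 15 genes in the 16 prepupal arrays, with Ubx and eGFP at 29 °C as filled circles and at 19 °C as open squares; bars are the mean ± SD of 4 arrays. In each panel the 29 °C groups lie apart, while at 19 °C the lines lie together except for igl and Cpr50Ca, where the differences were -0.77 and -0.51.

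Transcription factors of the wing and leg fields mostly fell where they were called. Of 41 measured appendage and body axis factors, 12 were called lower and 3 higher (36.6%), with a median of -0.02. Ubx-dependent among them were 7 lower and 3 higher. Doc1, a T-box gene, stood at 7.71, 7.35, 7.78 and 7.64 in Ubx arrays, against 9.01, 9.34, 9.39 and 9.37 in eGFP arrays, and fell by 1.66 (SE 0.08, adjusted p = 1.95e-19). Its neighbours Doc2 and Doc3, which encode the other T-box factors of the Dorsocross group, fell by 1.30 and 1.09. Dll, the homeobox gene of distal appendages, fell by 0.58 (adjusted p = 3.56e-08), with other probe sets at -0.23 and -0.54 that differed in call, and al, another distal homeobox gene, by 0.44. The pouch gene nub fell by 0.31 through its brightest probe set, a call lost without Ubx replicate 2, while its other probe sets gave -0.60 and -1.11 and differed in call. The selectors vg and ap were lower by 0.15 and 0.21, the first losing its call in 6 and the second in 2 of the 8 leave-one-out fits. The interaction was not called for nub, vg or ap (adjusted p = 0.431, 0.531 and 0.776).

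The factors that rose were nab, bab2 and dve. The BTB-domain gene bab2 stood at 7.03, 6.81, 7.29 and 7.16 in Ubx arrays, against 5.92, 6.23, 5.87 and 6.12 in eGFP arrays, and rose by 1.04 (SE 0.08, adjusted p = 2.75e-14). The homeobox gene dve rose by 0.68 through its brightest probe set, and its second probe set gave -0.04. Outside the list, the homeobox gene ems rose by 1.03 (adjusted p = 5.86e-06) and zld, a zinc finger factor that opens chromatin in the embryo, by 0.77 (adjusted p = 1.07e-11).

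Of 12 measured genes of EGFR signalling and vein placement, 3 were called lower and 0 higher (25.0%, against 17.3% of all genes). The vein regulator kn fell by 1.17 (SE 0.09, adjusted p = 1.94e-13), with a second probe set at -0.02, and the Iroquois genes caup and ara, which act in veins and in the notum, fell by 0.61 and 0.38. A further 4 regulators were held in the list of tracheal markers: the nuclear receptor genes knrl and kni, which also act in a longitudinal vein, fell by 0.99 and 0.65, the POU gene vvl by 0.92 and the zinc finger gene esg by 0.69. All were Ubx-dependent. The defining tracheal receptor gene btl lay between 4.09 and 4.53 in Ubx arrays and between 4.13 and 4.71 in eGFP arrays, at or below the array medians. Over the 13 measured members of that list the mean level was 8.12 to 8.17 in Ubx arrays and 8.30 to 8.34 in eGFP arrays, with 4 called lower and 1 higher. The part of tracheal cells in these differences was not tested.

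Growth regulators were called in both directions. Of 22 measured genes of the Hippo and insulin pathways, 8 were called higher and 6 lower (63.6%, against 17.3% of all genes), and 5 and 4 of these were Ubx-dependent. The gene scyl, an inhibitor of the growth kinase TOR, stood at 10.62, 10.52, 10.88 and 10.63 in Ubx arrays, against 9.43, 9.78, 9.72 and 9.68 in eGFP arrays, and rose by 1.01 (SE 0.08, adjusted p = 4.36e-14). The hypoxia factor gene sima, which switches scyl on under low oxygen, rose by 0.72 (adjusted p = 4.8e-10). ImpL2, whose secreted protein binds insulin-like peptides, fell by 0.63 (adjusted p = 1.4e-07). Outside the list Sdr, a secreted decoy of the insulin receptor, fell by 0.98 (adjusted p = 9.94e-11). In the Hippo pathway kibra, an activator, fell by 0.57, Mer, its partner, rose by 0.30 and fj, a kinase that tunes the Fat and Dachsous cadherins, fell by 0.43. With the prepupal 29 °C arrays fitted alone, 4 were called higher and 5 lower.

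Planar polarity genes, which orient the wing hairs, had 4 of 10 measured members called higher and 1 lower (50%), all by small amounts. The effector gene in was higher by 0.36, the cadherin genes ds and stan by 0.29 and 0.24, and the member called lower was fj. The interaction was not called for in (adjusted p = 0.338) or for stan (adjusted p = 0.198). In the JNK and cell death list 5 of 22 were called higher and 2 lower (31.8%), with 3 higher without Ubx replicate 4 or eGFP replicate 2. The Bcl-2 family gene Debcl rose by 0.44, while the caspase gene Dcp-1 fell by 0.45 and the TNF receptor gene grnd fell by 0.41.

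Junction and adhesion genes included some of the larger rises. The gene nrv2, a sodium pump subunit that is built into septate junctions, stood at 9.33, 9.36, 9.15 and 9.29 in Ubx arrays, against 7.77, 7.46, 7.79 and 7.97 in eGFP arrays, and rose by 1.53 (SE 0.08, adjusted p = 3.51e-19). The septate junction list had 4 of 23 measured members called higher and 1 lower (21.7%, near the 17.3% of all genes). It had 9 higher when arrays were centred on their medians and 7 higher without Ubx replicate 3. Besides nrv2, the genes cora and Cont were called at 0.20 and 0.15, and Nrg at 0.48 with probe sets that differed in sign. Cont gave 0.12 at 19 °C, and its interaction was not called (adjusted p = 0.855). The call of cora was lost without Ubx replicate 2, eGFP replicate 2 or eGFP replicate 3, and that of Nrg without Ubx replicate 4 or eGFP replicate 1. Ubx-dependence was lost in 10 of the 16 leave-one-out fits for cora and in 3 for Nrg. The immunoglobulin adhesion gene sns rose by 1.45 (adjusted p = 2.85e-12), of which 0.68 was present at 19 °C. Its relative kirre rose by 0.48, while another of its probe sets gave 0.00, and the neural cadherin gene CadN fell by 0.51, its Ubx-dependence lost in 6 of the 16 leave-one-out fits. In the axon guidance list otk, a receptor-like transmembrane gene, rose by 0.54 (adjusted p = 2.84e-09). The netrin receptor gene fra was higher by 0.34, without a call in the interaction (adjusted p = 0.308).

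Among cytoskeletal genes, regulators of microtubules had the largest differences. The microtubule-binding gene tau stood at 6.43, 6.61, 6.21 and 6.44 in Ubx arrays, against 8.74, 8.34, 8.66 and 8.59 in eGFP arrays, which is 4.46-fold lower (log2 difference -2.16, SE 0.10, adjusted p = 2.24e-21). Nna1, a carboxypeptidase gene of the family that trims glutamate chains from tubulin, stood at 4.83, 4.76, 4.80 and 4.82 in Ubx arrays, against 7.30, 7.12, 7.51 and 7.21 in eGFP arrays. Its difference of -2.48 (SE 0.17, adjusted p = 2.52e-15) ended at the array medians. The tubulin deacetylase gene HDAC6 rose by 0.63 and the tubulin gene betaTub60D by 0.47, while betaTub97EF was lower by 0.47. The interaction of betaTub97EF was not called (adjusted p = 0.0595). The whole microtubule list had 3 of 32 measured members called higher and 5 lower (25.0%, against 17.3% of all genes). It had 3 lower once Ubx replicate 1 or 3 or eGFP replicate 1 was left out.

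The calmodulin-binding gene igl stood at 4.22, 4.74, 3.87 and 4.31 in Ubx arrays, against 6.56, 6.23, 6.41 and 6.19 in eGFP arrays, and fell by 2.06 (SE 0.12, adjusted p = 1.79e-17), with -0.77 at 19 °C. TpnC4, a troponin C gene, fell by 1.46 to between 4.20 and 4.85. In the actin and myosin list 6 of 33 measured members were called higher and 3 lower (27.3%, against 17.3% of all genes), with 3 higher without eGFP replicate 2. The actin elongation gene ena rose by 0.63 (adjusted p = 3.58e-05), and the myosin light chain gene Mlc-c fell by 0.53 (adjusted p = 3.92e-15), with 11.75 to 11.89 in Ubx arrays and 12.27 to 12.41 in eGFP arrays. The gene pigs, which encodes a Gas2-like linker of actin and microtubules, rose by 1.33, with eGFP values from 3.97 to 4.4, below the array medians.

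Sb, a transmembrane serine protease needed for appendage eversion, stood at 8.28, 8.67, 8.20 and 8.21 in Ubx arrays, against 7.44, 7.25, 7.10 and 7.15 in eGFP arrays, and rose by 1.11 (SE 0.10, adjusted p = 3.63e-11). At 19 °C both lines lay near the 29 °C Ubx values, as the plot of values by array shows. Among laminins, the alpha chain gene wb fell by 1.03 (adjusted p = 5.97e-15), with other probe sets at -0.26 and -0.16 that differed in call. LanA and LanB1 were called higher by 0.27 and 0.26, with uncalled interactions (adjusted p = 0.314 and 0.119). The list of integrins, basement membrane and matrix proteases had 4 of 31 called higher and 6 lower (32.3%), with 3 lower without eGFP replicate 1.

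On the apical face, zona pellucida domain genes, which shape the cuticle surface, had 3 of 11 measured members called lower and 0 higher (27.3%, against 17.3% of all genes), with 1 higher without eGFP replicate 1. The genes qsm and dy fell by 0.64 each, and pot gave -0.26 at 29 °C and -0.35 at 19 °C. The groups of dy overlapped. Among chitin enzymes the chitinase gene Cht5 rose by 1.15 (adjusted p = 1.41e-05) and the precursor enzyme gene mmy was lower by 0.32. For mmy the 19 °C difference was -0.16, and the interaction was not called (adjusted p = 0.145).

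Cuticle protein genes were called lower more often than higher. Of 81 measured Cpr and related genes, 14 were called lower and 6 higher (24.7%, against 17.3% of all genes), and 52 of the 81 differences were negative. Ubx-dependent among them were 5 lower and 3 higher. Cpr50Ca stood at 6.15, 6.30, 5.76 and 6.11 in Ubx arrays, against 7.99, 7.71, 7.92 and 7.89 in eGFP arrays, and fell by 1.80 (SE 0.08, adjusted p = 2.81e-21), with -0.51 at 19 °C. Cpr47Ec gave -1.04 at 29 °C and -0.74 at 19 °C, and its interaction was not called (adjusted p = 0.377). Cpr35B was higher by 1.66 at 29 °C with an uncalled interaction (adjusted p = 0.109). Cpr72Eb gave -0.94 with overlapping groups: eGFP replicate 1 stood at 9.32 against 11.17 to 11.34 in the rest of its group. The difference was -1.42 without that array, and the call was lost without Ubx replicate 2 or eGFP replicate 2. The interaction of Cpr72Eb was not called (adjusted p = 0.111). Tweedle, Vajk and other cuticle genes had 2 of 44 called higher and 4 lower (13.6%), and the Ubx-dependent ones were Vajk1 and Muc91C, higher by 0.46 and 0.39. Twdlbeta and TwdlC, genes of the Tweedle cuticle family, gave -0.80 and -0.49, with uncalled interactions (adjusted p = 0.0845 and 0.0723).

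Osiris genes, a cluster of transmembrane protein genes active when cuticle forms, split by their line difference. Of 24 measured, 5 were called higher and 6 lower (45.8%). The 4 that were Ubx-dependent were all lower, among them Osi1 at -1.44, Osi5 at -0.99 and Osi7 at -0.75, the last with overlapping groups and its Ubx-dependence lost in 6 of the 16 leave-one-out fits. The prepupal 29 °C arrays alone gave 2 lower calls. Of the higher ones, Osi18 and Osi19 gave 0.75 and 0.68 at 29 °C and 0.84 and 0.88 at 19 °C. Osi1 stood at 4.03, 4.06, 4.22 and 4.02 in Ubx arrays, against 5.90, 6.48, 4.90 and 4.82 in eGFP arrays, a wide spread within the eGFP group.

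Ecdysone-cascade genes were called at a share near that of all genes. Of 33 measured members 2 were called higher and 3 lower (15.2%, against 17.3% of all genes). The receptor genes EcR and usp gave 0.10 (adjusted p = 0.57) and 0.22 (adjusted p = 0.000442). The prepupal competence factor gene ftz-f1 had a difference of 0.04 (SE 0.19, adjusted p = 0.947), with 11.38 to 11.67 in Ubx arrays and 11.34 to 11.62 in eGFP arrays. Of the downstream genes, Edg91, a cuticle gene induced by ecdysone, fell by 1.00, with its Ubx-dependence lost in 9 of 16 leave-one-out fits, and the ecdysone-induced factor gene Sox14 rose by 0.38 (adjusted p = 2.81e-06).

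Genes of the secretory pathway that were called all fell, by small amounts. Of 30 measured genes for folding and transport through the endoplasmic reticulum, 13 were called lower and 0 higher (43.3%), 11 of them Ubx-dependent, and 23 of the 30 differences were negative. The list median was -0.12 at 29 °C and 0.01 at 19 °C. The chaperone gene Hsc70-3, the fly BiP, stood at 10.58, 10.76, 10.70 and 10.64 in Ubx arrays, against 11.37, 11.49, 11.28 and 11.15 in eGFP arrays, and fell by 0.65 (SE 0.06, adjusted p = 1.64e-11). The chaperone genes Gp93 and Cnx99A fell by 0.34 and 0.32, the coat subunit gene Sec31 by 0.33, the retrieval receptor gene KdelR by 0.30 and the disulfide isomerase gene ERp60 by 0.29. The count of lower calls was 8 with the prepupal 29 °C arrays fitted alone and 10 with arrays centred on their medians, and 0 were called higher in each.

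Among 13 measured genes of glycolysis and lactate, 7 were called lower and 0 higher (53.8%), with a median of -0.19, and 3 of the 7 were Ubx-dependent. Gapdh1 and Tpi, both glycolytic enzymes, fell by 0.41 (adjusted p = 1.88e-09) and 0.37 (adjusted p = 1.69e-07). Pepck1, the entry enzyme of gluconeogenesis, fell by 0.70 (adjusted p = 0.0061) without a call in the interaction (adjusted p = 0.564). Oxidative phosphorylation had 15 of 79 members called lower and 0 higher (19.0%, near the 17.3% of all genes), 3 of them Ubx-dependent, with a median of -0.06. With arrays centred on their medians 5 lower and 1 higher were called. The count was 5 lower with the prepupal 29 °C arrays alone and between 6 and 9 lower once Ubx replicate 1 or 3 or eGFP replicate 1, 2 or 4 was left out, with 2 higher without eGFP replicate 4. Cytoplasmic ribosomal proteins had 1 of 41 called in each direction (4.88%), with 0 higher whichever array was left out. The lipid gene mdy, a diacylglycerol acyltransferase, fell by 1.31 (adjusted p = 3.35e-14), while its difference at 19 °C was 0.38.

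Detoxification genes were called at shares near the 17.3% of all genes. Cytochromes P450 had 5 of 83 called higher and 7 lower (14.5%), and glutathione and UDP-glycosyl transferases had 2 of 69 higher and 7 lower (13.0%). The P450 gene Cyp310a1 stood at 9.28, 9.09, 9.29 and 9.22 in Ubx arrays, against 11.28, 11.53, 11.47 and 11.48 in eGFP arrays, and fell by 2.22 (SE 0.23, adjusted p = 4.23e-10). The glutathione transferase genes GstD3 and GstD9 fell by 1.56 and 0.79, and GstD10 gave -0.80 without a call in the interaction (adjusted p = 0.173). Cyp4e1 was higher by 0.93 at 29 °C and by 1.54 at 19 °C.

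**Figure D4:**
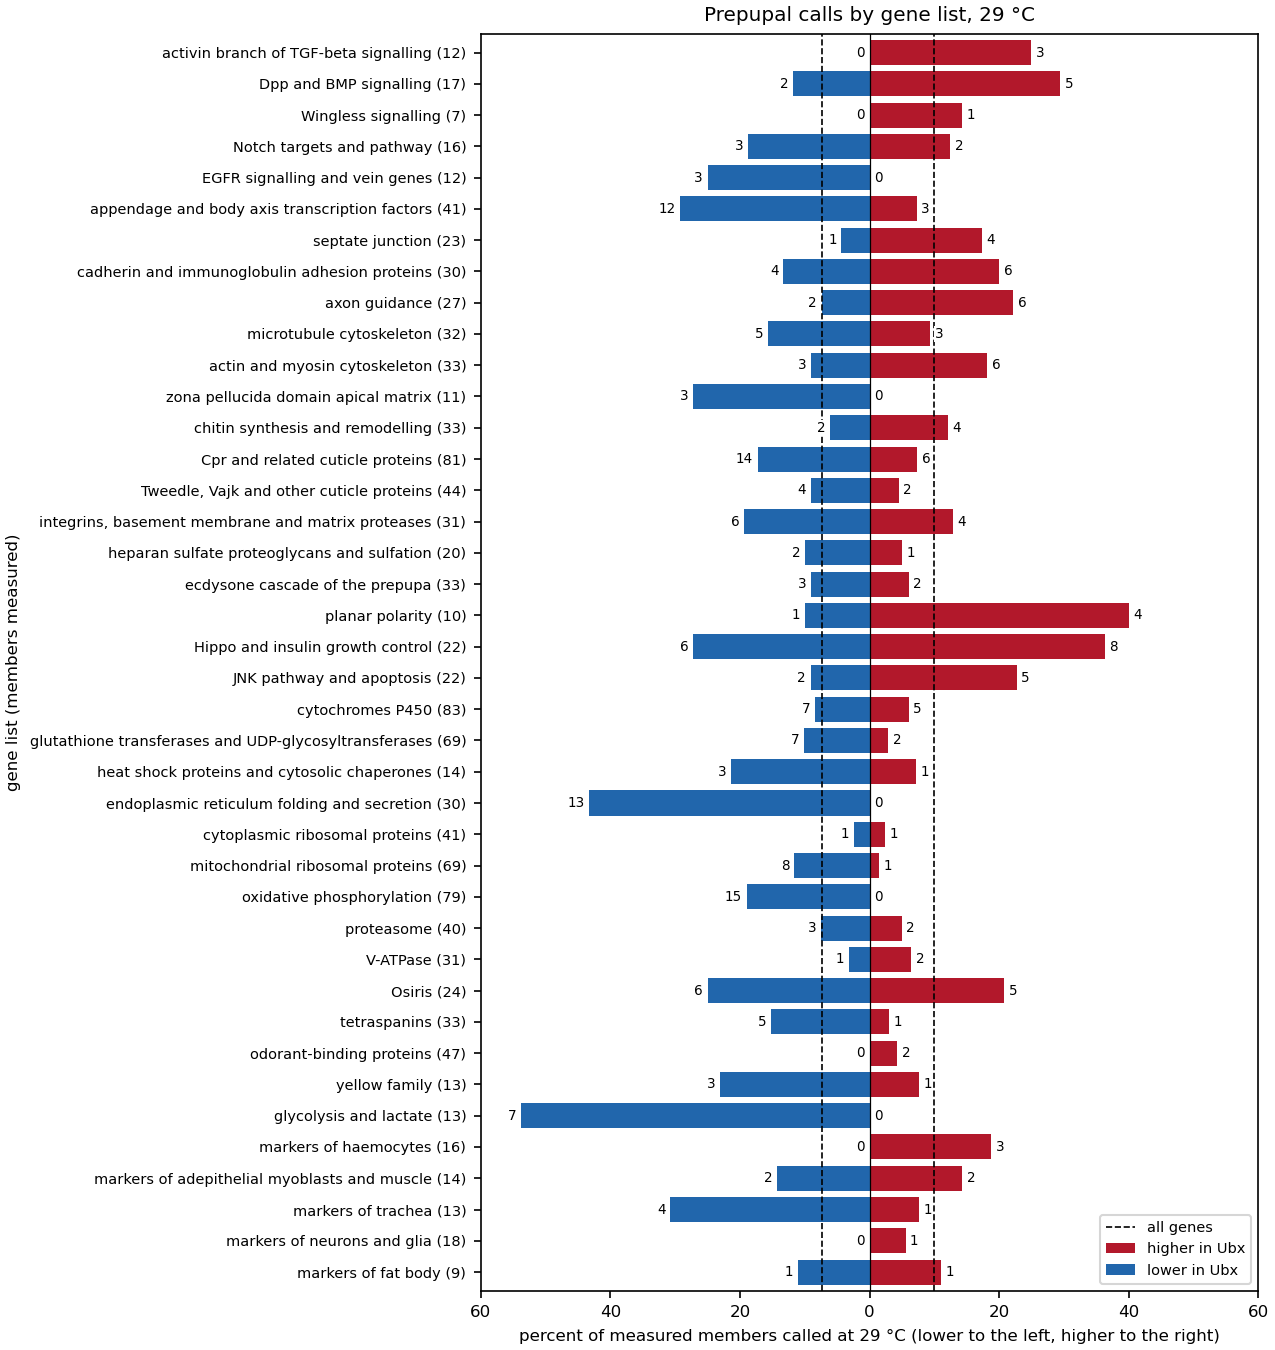
Percent of the measured members of 40 gene lists called lower (left) and higher (right) in Ubx prepupal wings at 29 °C, with the counts at the bar ends; dashed lines mark all genes, 7.31% lower and 10.0% higher. The endoplasmic reticulum list, with 13 lower and 0 higher, and the glycolysis list, with 7 lower and 0 higher, lie to the left of both lines.

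Several of the strongest genes carry no established name here. CG14191 stood at 9.91, 9.73, 9.94 and 10.28 in Ubx arrays, against 7.51, 6.94, 7.14 and 7.01 in eGFP arrays, and rose by 2.82 (SE 0.14, adjusted p = 3.19e-20). At 19 °C it lay between 4.08 and 4.5 in Ubx arrays and between 4.03 and 4.42 in eGFP arrays. Those values are below the array medians, where no line difference could be read. CG13833, CG8568, CG5065, CG15096 and CG31676 rose by 2.62, 2.19, 2.16, 1.79 and 1.77. CG13033, CG13893 and CG6462 fell by 1.88, 1.86 and 1.67, the last to between 4.7 and 4.95, close to the array medians. For the adaptor gene Sarm the brightest probe set gave 2.17 and the others gave values from -0.86 to 0.57. The RNA-binding gene mub rose by 1.26, and the splicing regulator gene mbl by 1.43, of which 0.70 was present at 19 °C and with probe sets that differed in sign.

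Markers of other cell types were read beside these results, against the 17.3% of all genes that were called. Haemocyte markers had 3 of 16 members called higher and 0 lower (18.8%, a share near that of all genes), none of them Ubx-dependent, with a mean level of 5.70 to 5.86 in Ubx arrays and 5.63 to 5.69 in eGFP arrays. With Ubx replicate 1 or 4 or eGFP replicate 3 left out, the haemocyte count was 1 higher. NimC1, a plasmatocyte receptor gene, gave 0.78 at 29 °C and 0.58 at 19 °C, and Hml, the haemolectin gene, gave 0.05 (adjusted p = 0.918). Myoblast and muscle markers had 2 of 14 called higher, among them sns, and 2 lower (28.6% in all, with 1 lower in 6 of the 8 leave-one-out fits), with a mean level of 5.78 to 5.83 in Ubx arrays and 5.66 to 5.74 in eGFP arrays. The myoblast genes twi and Him lay below the array medians in all 8 arrays. Markers of neurons and glia had 1 of 18 called (5.56%), with 14 of the 18 under the array median plus 0.5 and a mean level of 4.81 to 4.96 in Ubx arrays and 4.80 to 4.89 in eGFP arrays. The pan-neuronal gene elav gave 0.36 (adjusted p = 0.176) and the glial gene repo 0.03 (adjusted p = 0.88). Fat body markers had 1 of 9 called in each direction (22.2% in all, with 0 higher in 6 of the 8 leave-one-out fits), with a mean level of 6.33 to 6.75 in Ubx arrays and 6.27 to 6.64 in eGFP arrays. Among them the storage protein gene Lsp2 gave 0.26 (adjusted p = 0.877) and Fbp2 -1.28 (adjusted p = 0.0793). The part of these cell types in the results above was not tested.

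The prepupal response was then set beside those of larval wing discs and pupal wings at 29 °C, which come from other arrays. Of the 101 genes that were Ubx-dependent and at least 1.5-fold higher in prepupae, 18 (17.8%) were called higher in larvae, where 1.64% of all genes were, and 32 (31.7%) in pupae, where 5.39% were. Of the 111 lower ones, 21 (18.9%) were called lower in larvae against 1.67% of all genes, and 43 (38.7%) in pupae against 5.84%. The larval and pupal calls are 29 °C calls alone, without the 19 °C difference subtracted, so they can hold standing line differences. Cyp4p2 is such a gene, at -5.27 in larvae and -5.32 in pupae. Seen from the other side, the 18 and 32 make up 9.14% of the 197 genes called higher in larvae and 4.95% of the 646 called higher in pupae. The difference between stages was tested itself: the line difference changed between larva and prepupa for 926 of all genes (7.73%) and between pupa and prepupa for 1454 (12.1%). In probe sets these contrasts were called for 1184 (6.31%) and 1857 (9.89%). The contrast with the pupa was called higher for 1040 (5.54%) and lower for 817 (4.35%), a split that became 1571 higher and 521 lower with arrays centred on their medians.

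Esp was called in prepupae and at neither other stage. Its Ubx minus eGFP difference at 29 °C was 0.03 in larvae, 3.47 in prepupae and 0.04 in pupae, and the prepupal value exceeded the larval one by 3.44 and the pupal one by 3.43. For daw the values were 0.36, 3.13 and -0.19, and for nrv2 they were 0.02, 1.53 and -0.14. Among genes that fell, tau gave -0.02, -2.16 and 0.03, igl 0.02, -2.06 and -0.20, and Cpr50Ca 0.00, -1.80 and 0.03. Both stage differences of each of these genes were called. At the other stages the 29 °C group means of tau, igl and Cpr50Ca lay between 3.01 and 3.79 in both lines, below the prepupal array medians. A fall could not be read at such levels, so a response limited to prepupae was not shown for them.

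Other genes were called at every stage. Ubx-dependent in the same direction at all 3 stages were 6 genes that rose, nab, bab2, rdo, Ypel, CG30460 and CG10019, and 8 that fell, Doc1, Doc2, Doc3, Dll, nord, fj, CG14301 and CG7367. For rdo another probe set gave 0.04 in prepupae and was not called. Doc1 gave -1.17 in larvae, -1.66 in prepupae and -1.67 in pupae, with a called difference between prepupa and larva. The size of the nord response ran from -0.44 in larvae to -1.44 in prepupae and -1.97 in pupae, with both stage differences called. Dll went the other way from its larval value, with -1.07 in larvae, -0.58 in prepupae and -0.76 in pupae. CG10019 rose by 0.78, 1.45 and 3.08 in the same order.

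A few responses turned sign between stages. The genes Sdr, wdp, js and CG3649 were Ubx-dependent lower in prepupae and higher in pupae. For wdp, a leucine-rich repeat membrane protein gene, the difference was -0.55 in prepupae and 1.11 in pupae. For js it was -0.40 and 2.54, but its prepupal values lay between 3.98 and 4.13 in Ubx arrays and between 4.42 and 4.59 in eGFP arrays, all below the array medians. In the opposite direction 9 genes were higher in prepupae and lower in pupae, such as CG9747, with 0.73 and -0.84, and the receptor gene tkv, with 0.24 and -0.23. The second probe set of tkv gave 0.06 in prepupae and was not called. Between larvae and prepupae the cuticle gene Cpr31A gave -0.79 in larvae and 0.37 in prepupae, and the secreted protein gene slow gave 0.55 in larvae and -0.54 in prepupae.

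**Figure D5:**
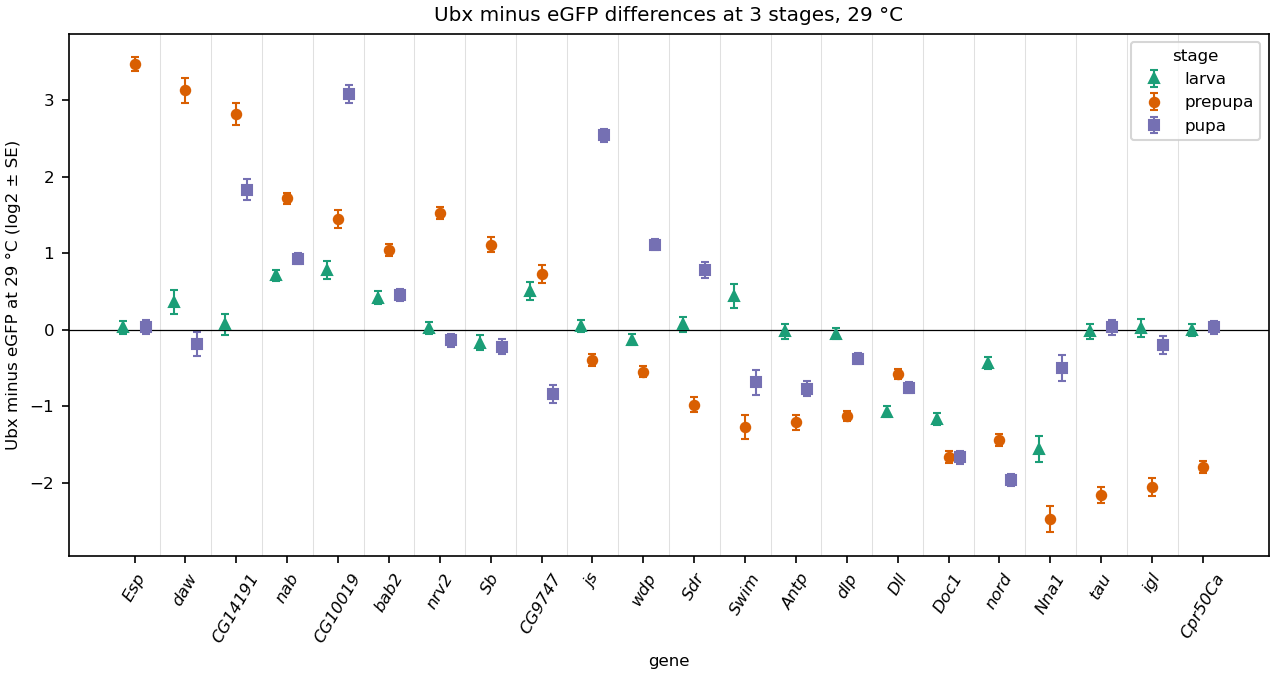
Ubx minus eGFP difference at 29 °C (log2, points with the SE of the fit, 4 arrays a group) of 22 genes in larval, prepupal and pupal wings. Esp, daw, nrv2, tau, igl and Cpr50Ca depart from 0 in prepupae and lie within 0.36 of 0 at the other stages, while Doc1 and nord are lower at each stage and wdp changes sign. For tau, igl and Cpr50Ca the levels at the other stages were low in both lines, where a fall could not be read.

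Genes with a large stage change of their own were called in both directions, at shares above the 17.3% of all genes. These sets hold genes that were expressed at some stage, and called shares were higher among brighter probe sets. A share above 17.3% can thus reflect level alone, which was not tested. The 200 genes that rose most between larva and prepupa in eGFP wings at 19 °C had 35 called higher and 43 lower in Ubx prepupae at 29 °C (39.0%), and the 200 that fell most between prepupa and pupa had 31 higher and 45 lower (38%). The 200 that fell most between larva and prepupa had 39 called higher and 12 lower (25.5%), and the 200 that rose most between prepupa and pupa had 32 higher and 18 lower (25.0%). Median differences of these 4 sets were -0.02, -0.02, 0.05 and 0.03, beside 0.001 for all genes. Pupal minus prepupal levels of daw and nab in eGFP wings at 19 °C were 3.11 and 3.03, and both genes were higher in Ubx prepupae. In the same set CG14301, at 2.89, was lower by 1.42. Prepupal minus larval levels of tau and igl were 4.34 and 4.95, and both genes were lower in Ubx prepupae. Others of that set went the other way: CG13833 and CG8568, at 4.99 and 4.28, were higher by 2.62 and 2.19. For bab2, ems and magu the prepupal minus larval levels were -4.85, -4.54 and -4.26, and these were higher in Ubx prepupae. Stages cross sets of arrays that appear to have been normalised apart, so the size of these stage changes includes any set difference.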

How the data were processed

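RNA of larval, prepupal and pupal wings was measured on 48 Affymetrix arrays, 4 for each of 12 groups. The values are log2 expression values that the authors deposited in a single table and made with RMA, per the submitters' processing notes. The notes state neither log base nor version; the base was read from the range of the values, 2.37 to 14.6. Value distributions coincide within the 8 arrays that share stage and temperature, which looks like a separate normalisation of each such set. A Ubx against eGFP comparison stays inside a set, but the interaction with temperature and the stage contrasts cross sets, and there set, hours after puparium formation and temperature cannot be told apart.

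Of 18952 probe sets, 183 controls were left out and 18769 were tested, with no filter on low values. The supplied annotation gave 13647 probe sets 1 symbol, 402 several and 4720 none; 11982 genes were read through their brightest probe set, by the mean of the 48 arrays, and 241 called genes had more than 1 probe set, of which 87 differed in sign. The limma package (3.58.1, R 4.3.3) fitted 1 mean per group to the 48 arrays by lmFit, followed by eBayes, with 36 residual and 5.16 prior degrees of freedom. Contrasts were two-sided, and their p-values took a Benjamini-Hochberg adjustment across 18769 probe sets. Depth has no meaning for arrays, and their number limits the precision. The files give no detection calls, so a value near the array medians may be background, and a fold against such a value is as measured and not a bound. The labels call replicates biological. The fit was tested on simulated data. Tables were made with pandas 2.3.3 and numpy 2.4.6 under Python 3.11.15, and plots with matplotlib 3.10.9.

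The comparison, the 40 gene lists and the rule for naming genes were chosen with earlier results of these data known, and some genes belong to several lists. The rule named nab and Antp, the 25 largest Ubx-dependent rises and falls (those known by a CG number only among the first 15), up to 6 called members a list, the 8 largest differences each way at 19 °C and in each stage contrast, up to 6 genes per stage set and the defining markers of other cell types. Genes named outside the rule, after their values were seen, were Dll, al, dve, nub, ap, EcR, ftz-f1, Mer, Sdr, wdp, CG9747, Cpr31A, slow, Vajk1, Muc91C and the members of the all-stage set. Same-numbered arrays of the 2 lines did not deviate together (correlations from -0.10 to 0.10 over both temperatures), so replicate numbers were not taken to pair arrays. Alternatives refitted the arrays of the comparison alone, added a replicate block, centred or quantile-normalised the arrays, dropped dim probe sets, averaged probe sets of a gene, and left out each array in turn. A planned count of promoter motifs was not run, since promoter sequences were not used here.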

Additional observations from a re-analysis of the deposited data

Results flagged for a closer look

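In groups of 4 arrays, an array was marked where its gap to the nearest other array of its group was, as a share of the group's range, above Dixon's critical value, which chance alone gives in about 1 group of 20. Of 604 groups of values tested, 30 held a mark, about the number that chance gives. The marks were not spread evenly, since 10 were on eGFP replicate 1 at 29 °C, more than on any other array. Doc1 read 9.01 there against 9.34 to 9.39 in the rest of the group, Doc3 7.83 against 8.19 to 8.25, mdy 8.57 against 8.97 to 9.03, esg 7.45 against 7.86 to 7.88 and mmy 12.44 against 12.63 to 12.64. Cpr47Ec read 10.86 against 11.25 to 11.30, and Cpr72Eb 9.32 against 11.17 to 11.34. That array was high for CG8568, 8.37 against 7.97 to 8.0, for ana, 7.39 against 7.11 to 7.14, and for CadN, 5.98 against 5.45 to 5.49. For each of these genes but CadN, its value was shifted toward the Ubx group. The cause was not tested. Over all 11982 genes eGFP replicate 1 stood apart in 1.60% of them, beside up to 1.65% for another array of the comparison. Without that array 2334 probe sets were called at 29 °C and 1008 were Ubx-dependent.

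Among the other 29 °C arrays, CG13833 read 5.93 in eGFP replicate 2 and tkv 11.03 in eGFP replicate 4. In Ubx arrays, replicate 1 read 8.08 for Lsp2, 5.68 for CG10019 and 7.18 for ems, replicate 3 read 8.06 for kn and 12.37 for rdo, and replicate 4 read 8.88 for sns. At 19 °C, eGFP replicate 2 stood apart for CG13833 at 9.51, for Mlc-c at 11.97 and for ems at 6.18. The eGFP replicate 4 stood apart there for CG5065 at 9.27 and for CG13033 at 6.31, and eGFP replicate 1 for Sec31 at 9.76 and for ERp60 at 12.44. Ubx replicate 1 at 19 °C read 5.83 for TpnC4 and 5.98 for CG43103, Ubx replicate 3 read 8.87 for Cht5, and Ubx replicate 4 read 7.64 for Doc3 and 5.66 for GstD10.

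The Ubx minus eGFP difference itself differed between conditions, by the contrast of differences, for 1443 probe sets between 29 and 19 °C, 1184 between prepupa and larva and 1857 between prepupa and pupa. The prepupal difference minus the larval one and minus the pupal one were 3.44 and 3.43 for Esp, 2.77 and 3.32 for daw, 1.52 and 1.67 for nrv2, 1.28 and 1.33 for Sb, and 1.01 and 0.79 for nab. They were -2.14 and -2.19 for tau, -2.09 and -1.86 for igl, -0.93 and -1.98 for Nna1, -1.80 and -1.83 for Cpr50Ca, and -0.45 and -2.95 for js. For Antp they were -1.20 and -0.44, for dlp -1.08 and -0.74, and for nord -1.0 and 0.53. Against larvae alone the contrast was called for Swim at -1.71, Doc1 at -0.49 and Dll at 0.49. The larval and pupal levels of tau, igl and Cpr50Ca were low in both lines, so a fall could not be read there.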

How the results depend on the processing

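Counts here are probe sets. The 29 °C count stayed within 1.5 times of 2672 under each alternative. With only the arrays of each comparison fitted, 358 were called at 19 °C (146 higher, 212 lower), 948 in the interaction (574 higher, 374 lower) and 741 as Ubx-dependent (291 of them lower), and 532 were lower in prepupa minus pupa. Centring arrays on their medians gave 1571 higher and 521 lower in prepupa minus pupa. The share of higher calls also moved, to 567 higher and 567 lower Ubx-dependent with quantile normalisation.

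With 1 array left out at a time, counts ran from 2220 to 2690 at 29 °C (higher 1191 to 1578, lower 960 to 1112), 513 to 759 at 19 °C (219 to 335, 273 to 464), 1125 to 1515 in the interaction (643 to 923, 482 to 592), 923 to 1122 Ubx-dependent (514 to 706, 389 to 458), 982 to 1224 for prepupa minus larva (485 to 684, 471 to 588) and 1424 to 2231 for prepupa minus pupa (769 to 1285, 655 to 946).

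Replicate numbers did not pair the arrays: correlations of same-numbered deviations ran from -0.10 to 0.10. A fit with the number as a block called 2527 at 29 °C, 644 at 19 °C, 1334 in the interaction, 1031 Ubx-dependent, 1075 for prepupa minus larva and 1728 for prepupa minus pupa.

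Of 151 named genes, 7 (tok, sax, vg, ap, Cont, Cpr72Eb and Osi7) lost their 29 °C call when only the arrays of the comparison were fitted, and 6 in at least 1 fit that left out an array. The call of vg was also lost with the replicate block and with arrays centred on their medians, and that of cora with quantile normalisation. Averaging probe sets took away the calls of Sarm, at 0.11, and Nrg, at 0.23. Signs turned only for genes not called at 29 °C: Tret1-1 to -0.02 with quantile normalisation and to -0.24, -0.03 and -0.03 with an array left out (range -0.24 to 0.14). With an array left out ftz-f1 ran from -0.01 to 0.09, Hml from -0.02 to 0.15, btl from -0.12 to 0.07 (also 0.04) and repo from -0.03 to 0.08. The cause was not tested. The limit on low genes is signal over background, since the values carry no detection calls. For Esp, Nna1, Swim, igl, pigs, TpnC4, Osi1, Antp, Cyp4p1, Cyp4p2, Cyp4e1, CG6462, CG31676, CG10019 and Fbp2 a group averages close to or below the array medians, and for js and Buffy both do. At 19 °C both groups of daw and of CG14191 averaged below them.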
